A study of Homo sapiens with 4 samples.

Results

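This account covers the genes of fatty acid and glycerolipid metabolism in MiaPaCa2 cells, a line derived from a human pancreatic ductal carcinoma. A list of 38 genes was taken by name, in the order of the pathway: fatty acid synthesis, elongation, desaturation, activation, glycerolipid assembly, and storage or use. Of these, 35 had a probe set that the platform annotation assigns to a single gene symbol, among 18417 genes with such a probe set. The other 3, ACSL3, AGPAT1 and AGPAT3, had no such probe set and are not analysed here. Where a gene had several probe sets, the brightest stood for it. Among the 35 this applied to DGAT1, whose 2 probe sets had identical values on all 4 arrays and so give no second measurement. The tested cultures received LY101-4B at 50 µM for 24 h (2 arrays), and the control cultures received vehicle for 24 h (2 arrays). Per the design text, the samples within a group are biological replicates. A protocol text attached to all 4 samples names LY101-4D at 25 µM instead, whereas titles, agent labels and design text give LY101-4B at 50 µM. The series title calls LY101-4B an E2F inhibitor, that is, an inhibitor of the transcription factors that drive entry into S phase.

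Cells make fatty acids from cytosolic acetyl-CoA: acetyl-CoA carboxylase converts it to malonyl-CoA and fatty acid synthase builds a saturated chain from both. Elongases lengthen the chain, desaturases add double bonds, and acyl-CoA synthetases activate free fatty acids so that acyltransferases can attach them to a glycerol backbone, giving phospholipids or the triacylglycerol of lipid droplets. Many of these genes are known targets of the SREBP transcription factors, membrane-bound proteins that are cleaved and sent to the nucleus when the endoplasmic reticulum is poor in sterols.

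Expression was read on Human Gene 1.0 ST arrays as log2 RMA values. One log2 unit is a 2-fold difference, and a value is compared here only with values of the same gene on other arrays. Array medians over all rows lay between 5.89 and 5.97. Replicate arrays correlated at r = 0.994 for LY101-4B and r = 0.997 for vehicle across the 21214 tested probe sets, and arrays of different groups at 0.978 to 0.981. The LY101-4B arrays lay farther apart: their median gap over the 35 genes was 0.105 log2 units, against 0.051 between the vehicle arrays, and LY101-4B replicate 2 gave the higher value in 27 of the 35 (58.3% over all 18417 genes). The part of this offset in single results was not tested, except by leaving out each array in turn. Of the epithelial and ductal markers, KRT8, KRT18, KRT19 and SOX9 averaged 12.36, 12.66, 9.17 and 8.19 over the 4 arrays. KRT7 averaged only 5.97 and MUC1 6.72, EPCAM (3.91) and CDH1 (4.53) were dim, and the mesenchymal filament gene VIM stood at 12.58. These were not level between the groups: 3 of the 9 markers on that list fell, KRT8 by 0.84, KRT18 by 0.57 and SOX9 by 0.43 log2 units (limma adjusted p 0.0037, 0.011 and 0.037), 0 rose, and the list summed to 75.24 and 75.07 with LY101-4B, against 76.9 and 77.2 with vehicle. The part of this shift in the results was not tested. The 9 measured fibroblast, endothelial and leukocyte markers lay between 3.18 and 6.91 and summed to 43.05 and 42.93 on the LY101-4B arrays, against 44.03 and 43.23 on the vehicle arrays; 1 of them, COL3A1, was lower. The 7 hepatocyte and adipocyte markers lay between 3.75 and 6.31, and 0 of them passed. Without detection calls, no gene could be called absent.

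Across the pathway 12 of the 35 genes rose, 5 fell and 18 did not pass, at a limma p under 0.05 after Benjamini-Hochberg adjustment over all tested probe sets. Over all 18417 genes, 8.88% rose and 10.7% fell by the same rule. Rises thus made up a larger share here (34.3%) and falls a similar one (14.3%). The 35 genes were listed with earlier results of these data known, so their shares are a description and not independent evidence. The median difference, LY101-4B minus vehicle, was 0.12 log2 units over the 35 genes and 0.0047 over all genes. A rise of at least 2-fold was called in 6 of 35 genes, against 1.66% of all genes: FADS3, ACSS2, FADS1, ELOVL7, FADS2 and SCD. The groups did not overlap for 26 of the 35 genes, against 58.0% of all genes, so lack of overlap alone says little. All 5 measured desaturases and 5 of the 9 genes of glycerolipid assembly passed. Of the 5 falls, 3 were in acyltransferase genes (GPAM, AGPAT5 and DGAT2). Of the other measured acyltransferases of that step, AGPAT4 rose and AGPAT2 and DGAT1 did not pass. The acyltransferases are not a step of their own, and the steps were not tested against each other.

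**Figure D1:**
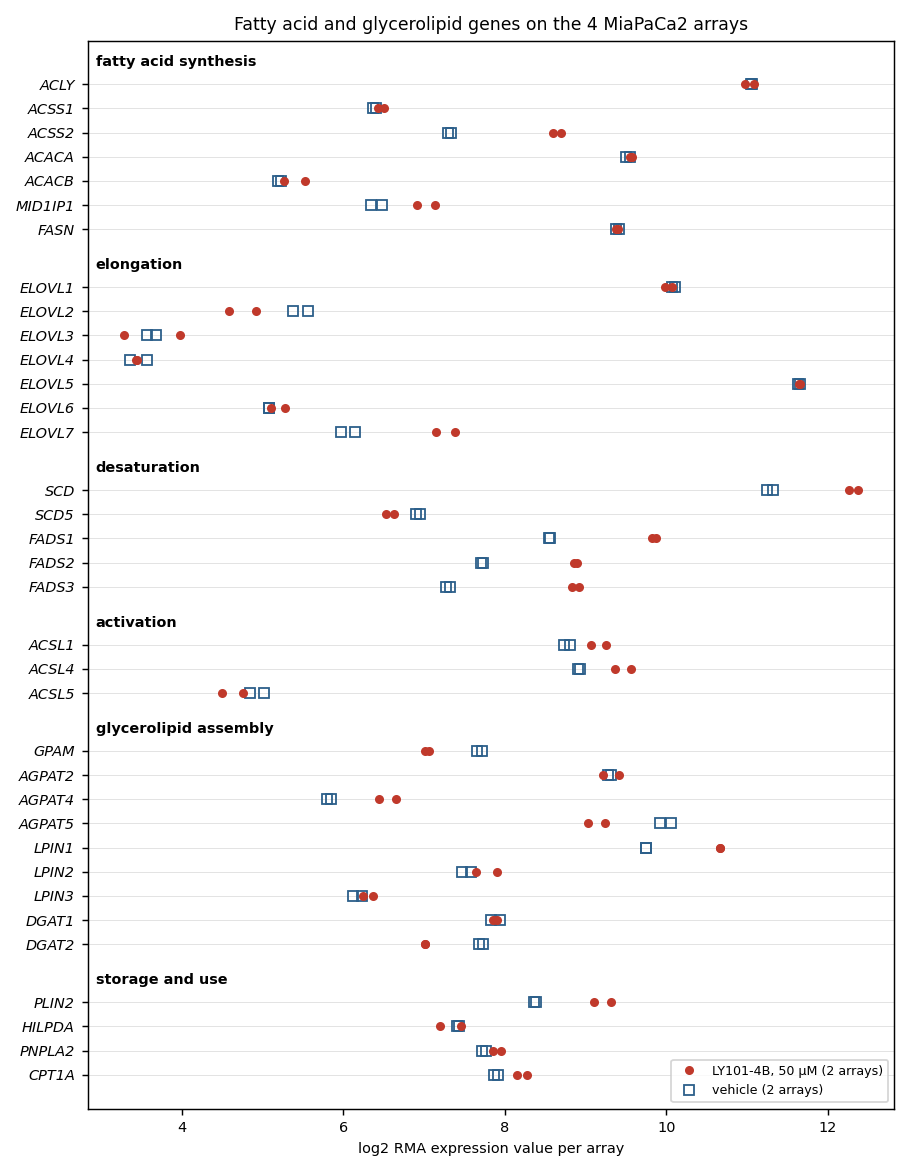
Log2 RMA value (x axis) of each of the 35 measured genes, grouped by pathway step, on the 2 LY101-4B arrays (filled circles) and the 2 vehicle arrays (open squares). Positions are to be compared within a row; circles stand clear of the squares to the right for ACSS2, ELOVL7, SCD, FADS1, FADS2, FADS3 and LPIN1, and lie on them for FASN, ACLY and ELOVL5.

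**Figure D2:**
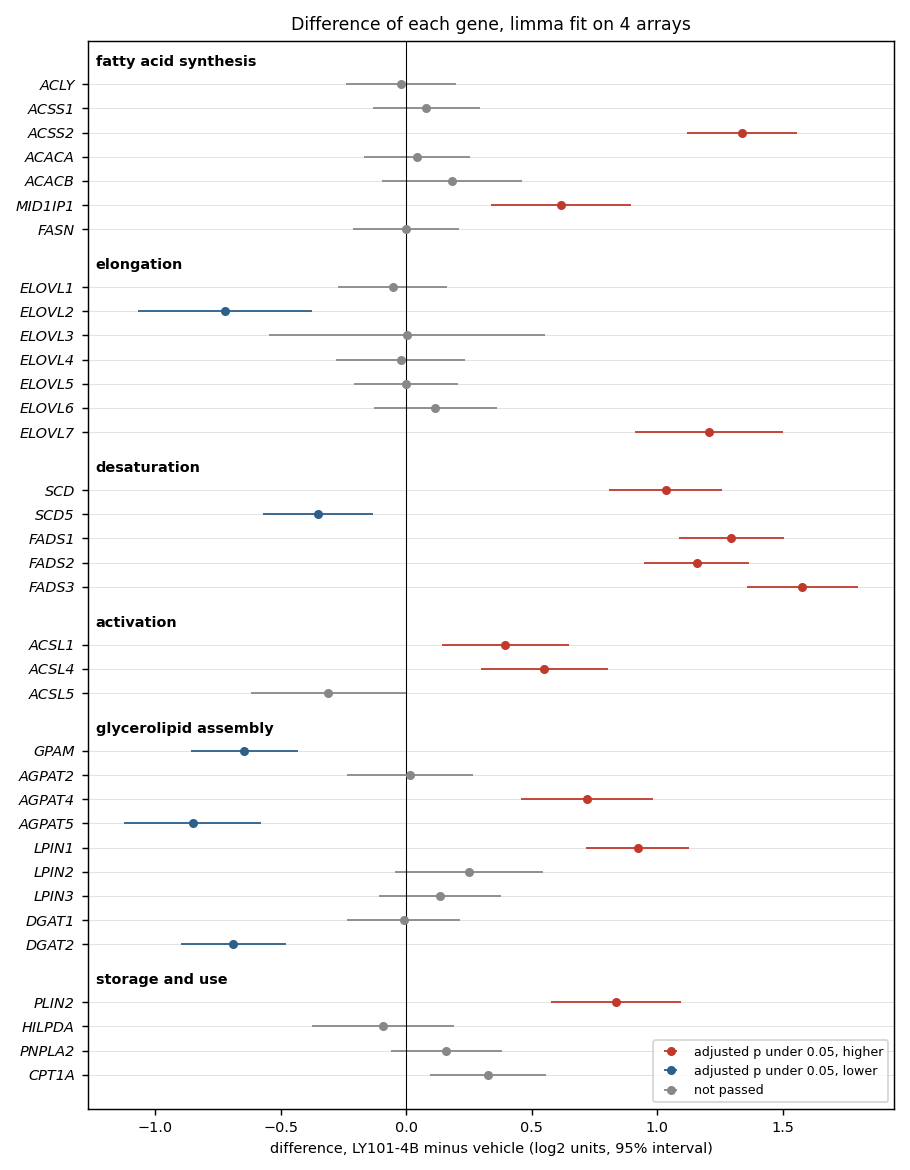
Difference, LY101-4B minus vehicle, in log2 units (x axis) for each gene, with the 95% interval from the limma fit on 4 arrays as the bar and colour giving the call. The 12 genes called higher reach 1.58 for FADS3, and the 5 called lower reach -0.85 for AGPAT5.

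Among the desaturases, 4 of 5 genes rose and 1 fell, and the median difference of the step was 1.16 log2 units. SCD, the stearoyl-CoA desaturase that makes oleate and palmitoleate, had 12.26 and 12.37 log2 units on the LY101-4B arrays, against 11.32 and 11.25 on the vehicle arrays. Both LY101-4B values lay above both vehicle values, a difference of 1.03 ± 0.09 (SE), or 2.05-fold (adjusted p 0.0019). SCD5, its paralogue, went the other way, with 6.62 and 6.53 in LY101-4B cultures and 6.90 and 6.95 in vehicle cultures, a fall of 1.28-fold (-0.35 ± 0.09, adjusted p 0.044). The SCD5 call was lost without any single array (adjusted p 0.059 and 0.086 without LY101-4B replicate 1 or 2, 0.208 and 0.271 without vehicle replicate 1 or 2), with all rows of the table tested (0.106) and with the replicate number as a block (0.057), and the difference between the paralogues was not itself tested.

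The 3 FADS genes are neighbours on chromosome 11. FADS1 and FADS2 encode the desaturases that turn dietary essential fatty acids into arachidonic and other highly unsaturated fatty acids, and FADS3 encodes a related enzyme that acts on sphingoid bases. FADS3 had 8.83 and 8.92 log2 units with LY101-4B, against 7.27 and 7.32 with vehicle, a rise of 1.58 ± 0.09 (SE), or 2.98-fold (adjusted p 0.00067), the largest among the 35 genes. FADS1 had 9.82 and 9.87 with LY101-4B, against 8.56 and 8.54 with vehicle, a 2.45-fold rise (adjusted p 0.00093). FADS2 had 8.86 and 8.90 with LY101-4B, against 7.73 and 7.71 with vehicle, a 2.23-fold rise (adjusted p 0.0011). In each of the 3 genes the replicate arrays of a group agreed within 0.1 log2 units, far less than the gap between groups.

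The rise was not shared along the whole chromosomal neighbourhood. FEN1, the flap endonuclease of DNA replication and the gene next to FADS1, had 8.70 and 8.82 log2 units with LY101-4B and 10.02 and 9.99 with vehicle, a 2.37-fold fall (adjusted p 0.0011). RAB3IL1, the gene next to FADS3, had 6.42 and 6.49 with LY101-4B and 6.23 and 6.50 with vehicle and did not pass (0.09 ± 0.12, adjusted p 0.67). Farther out on either side, TMEM258 rose 1.37-fold (adjusted p 0.024) and BEST1 rose 1.88-fold (adjusted p 0.003). These 4 neighbours were looked up after the FADS values were known, and their calls were not checked with an array left out. The annotated spans of FADS1 and FADS2 overlap at their 5′ ends, and whether any probe lies in the overlap is not known here.

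**Figure D3:**
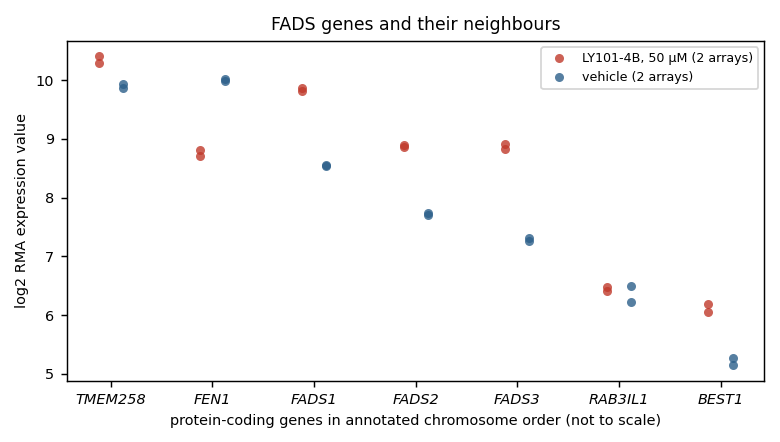
Log2 RMA values (y axis) of the FADS genes and the 2 protein-coding genes on either side, in annotated order and not to scale, on the LY101-4B arrays (left points of each gene) and the vehicle arrays (right points). FADS1, FADS2 and FADS3 stand higher with LY101-4B, FEN1 lower, and the RAB3IL1 values overlap.

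Because the desaturase genes moved together while SCD5 did not, the letters before their starts were searched for sites of factors known to act on lipid and stress genes. The 250 bases before each annotated start were read from RefSeq's promoter table (GRCh38.p14), which held 52 such windows for 32 of the 38 genes, 29 of them measured. FASN, DGAT1, DGAT2, AGPAT5, LPIN3 and HILPDA had no window there and were not searched. Letter patterns, chosen after the values were known, were searched on both strands: TCACNCCAC, the core of a classical sterol regulatory element; CCAAT, the box bound by NF-Y; CACGTG, an E-box; and TGATGNAA, the core of an ATF4 element. No pair of these patterns overlapped in the windows shown. The following windows are shown because SCD and FADS3 rose, SCD5 fell, and MID1IP1, another gene that rose, holds the sterol pattern beside a CCAAT box. Capitals mark the matches. The windows are chr10:100346983-100347232 (plus strand) for SCD, chr4:82798797-82799046 (minus strand) for SCD5, chr11:61891546-61891795 (minus strand) for FADS3 and chrX:38801209-38801458 (plus strand) for MID1IP1.
SCD: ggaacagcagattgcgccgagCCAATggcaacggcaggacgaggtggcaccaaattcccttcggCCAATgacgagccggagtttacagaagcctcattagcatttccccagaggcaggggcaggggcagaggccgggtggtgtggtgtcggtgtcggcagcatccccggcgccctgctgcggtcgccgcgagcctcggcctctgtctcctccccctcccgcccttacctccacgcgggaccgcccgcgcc
SCD5: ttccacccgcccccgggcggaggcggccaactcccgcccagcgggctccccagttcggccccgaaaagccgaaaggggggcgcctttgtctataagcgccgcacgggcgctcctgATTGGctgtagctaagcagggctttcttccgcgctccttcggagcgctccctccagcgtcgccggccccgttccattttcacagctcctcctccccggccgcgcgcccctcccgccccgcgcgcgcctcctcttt
FADS3: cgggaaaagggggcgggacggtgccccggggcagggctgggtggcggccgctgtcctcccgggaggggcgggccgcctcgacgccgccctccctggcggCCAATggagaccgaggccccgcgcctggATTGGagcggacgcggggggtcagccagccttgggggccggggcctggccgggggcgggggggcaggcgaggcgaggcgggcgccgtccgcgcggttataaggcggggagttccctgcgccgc
MID1IP1: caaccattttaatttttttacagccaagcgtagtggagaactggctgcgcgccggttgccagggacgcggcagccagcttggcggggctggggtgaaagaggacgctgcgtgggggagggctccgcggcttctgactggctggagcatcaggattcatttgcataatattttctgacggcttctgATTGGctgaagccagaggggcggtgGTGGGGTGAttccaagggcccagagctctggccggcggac
The SCD window had CCAAT beginning 229 and 186 bases before the start. SCD5 had it once on the opposite strand, 135 bases before the start, and FADS3 had it once on each strand, at 151 and 123 bases. In MID1IP1 the sterol pattern lay on the opposite strand at 40 bases and CCAAT, likewise reversed, at 65 bases. The pairing was not particular to MID1IP1. A window of ACSL1, which also rose and is not shown, held both patterns on the opposite strand, at 242 and 215 bases. No pattern was found in the windows of FADS1 or FADS2, which says only that these letters are not in those windows.

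Counted per gene, over all windows of a gene, the sterol pattern occurred in 2 of the 12 genes that rose (MID1IP1 and ACSL1), in 0 of 3 that fell and in 1 of 14 that did not pass (PNPLA2), against 1.19% of 14239 genes on the array with a window. CCAAT occurred in 6 of 12, 1 of 3 and 7 of 14, against 40.4% of genes. The E-box occurred in 1 of 12 (PLIN2), 0 of 3 and 3 of 14, against 9.8%. The ATF4 pattern occurred in 0 of 12, 0 of 3 and 0 of 14, against 3.12%. Over all 35116 windows the shares were 0.883%, 32%, 6.34% and 3.14%. Genes with several annotated starts, such as ACSL1 with 5, had more letters searched. A match is a description of the sequence and not a bound site.

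At the start of the pathway 2 of 7 genes rose and 0 fell. ACSS2, which makes cytosolic acetyl-CoA from acetate, had 8.60 and 8.69 log2 units with LY101-4B, against 7.29 and 7.33 with vehicle. This was a rise of 1.34 ± 0.09 (SE), or 2.53-fold (adjusted p 0.00093). MID1IP1, whose product promotes the assembly of acetyl-CoA carboxylase into active filaments, had 6.91 and 7.13 with LY101-4B, against 6.48 and 6.34 with vehicle, a 1.53-fold rise (adjusted p 0.016). The call was lost when vehicle replicate 1 (adjusted p 0.058) or vehicle replicate 2 (0.105) was left out, and over all rows of the table (0.059).

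The core synthetic enzymes did not pass. FASN, fatty acid synthase, had 9.38 and 9.40 log2 units with LY101-4B, against 9.37 and 9.41 with vehicle. Its difference was -0.0011, with a 95% interval from -0.21 to 0.21, and turned to 0.09 under cyclic loess. ACLY, which makes acetyl-CoA from citrate, had 10.98 and 11.08 with LY101-4B and 11.04 and 11.06 with vehicle (-0.02, interval -0.24 to 0.20, and 0.09 under cyclic loess). ACACA, the main acetyl-CoA carboxylase, had 9.55 and 9.58 with LY101-4B and 9.50 and 9.55 with vehicle (0.04, interval -0.17 to 0.25, and -0.0076 with arrays centred on their medians). For these 3 genes the intervals thus left no room for a change as large as that of SCD or ACSS2, which does not show that their levels were equal. ACSS1, the mitochondrial counterpart of ACSS2, had 6.43 and 6.50 with LY101-4B and 6.40 and 6.36 with vehicle and did not pass (0.08, interval -0.13 to 0.29). ACACB, the carboxylase isoform tied to control of fatty acid oxidation, had 5.27 and 5.52 with LY101-4B and 5.23 and 5.19 with vehicle. It was dim in both groups and did not pass either (0.18, interval -0.10 to 0.46).

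Of the 7 elongases, the condensing enzymes that begin each round of chain lengthening, 1 rose, 1 fell and 5 did not pass, with a median difference of 0.0007. ELOVL7, which lengthens mainly saturated chains, had 7.14 and 7.38 log2 units with LY101-4B, against 6.14 and 5.97 with vehicle, a 2.31-fold rise (1.21 ± 0.12, SE; adjusted p 0.0024). ELOVL2, which acts on highly unsaturated chains, had 4.58 and 4.91 with LY101-4B, against 5.56 and 5.37 with vehicle, a 1.65-fold fall (-0.72 ± 0.14, adjusted p 0.0195). The ELOVL2 values were dim in both groups, and so were the vehicle values of ELOVL7. The ELOVL2 call was lost without LY101-4B replicate 1 (adjusted p 0.053), without vehicle replicate 1 (0.103) and over all rows (0.069).

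ELOVL5, which lengthens the unsaturated products of the FADS enzymes, lay between 11.63 and 11.66 on all 4 arrays. Its difference was 0.0007 (interval -0.21 to 0.21, and -0.05 with arrays centred on their medians), in contrast to the rises of FADS1 and FADS2. ELOVL1, an elongase of very long saturated chains, had 9.99 and 10.07 with LY101-4B and 10.10 and 10.06 with vehicle and did not pass (-0.05, or 0.05 under cyclic loess). ELOVL6, which lengthens the product of fatty acid synthase, had 5.28 and 5.10 with LY101-4B and 5.08 on both vehicle arrays. It was dim in both groups and did not pass (0.12, adjusted p 0.497). ELOVL3 ranged from 3.29 to 3.97 between the 2 LY101-4B arrays, a wider gap than in any other of the 35 genes, and ELOVL4 lay between 3.35 and 3.56 on all arrays. At such dim values nothing can be said of change in ELOVL3 (0.0022, interval -0.55 to 0.55, and -0.05 with median centring) or ELOVL4 (-0.02).

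Among the 3 measured acyl-CoA synthetases, 2 rose by small amounts and 1 did not pass. ACSL4, which prefers arachidonic acid and is known for its part in ferroptosis, had 9.36 and 9.56 log2 units with LY101-4B, against 8.90 and 8.93 with vehicle, a 1.46-fold rise (adjusted p 0.017). ACSL1 had 9.07 and 9.26 with LY101-4B, against 8.73 and 8.80 with vehicle, a 1.31-fold rise (adjusted p 0.048). ACSL5 had 4.50 and 4.76 with LY101-4B and 4.85 and 5.02 with vehicle. It was dim in both groups and did not pass (-0.31 ± 0.12, adjusted p 0.152). ACSL4 missed the threshold without vehicle replicate 1 (0.108) or 2 (0.093) and over all rows (0.059). The ACSL1 call was lost when LY101-4B replicate 2 (0.094) or either vehicle array (0.257 and 0.178) was left out, over all rows (0.117), with median centring (0.07) and with a robust prior (0.051).

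Glycerolipid assembly held changes in both directions: of 9 measured genes 2 rose, 3 fell and 4 did not pass, with a median of 0.02. GPAM, the mitochondrial acyltransferase that attaches the first acyl chain to glycerol phosphate, had 7.06 and 7.01 log2 units with LY101-4B, against 7.71 and 7.66 with vehicle, a 1.56-fold fall (-0.65 ± 0.09, SE; adjusted p 0.0059). It missed the threshold without vehicle replicate 1 (0.057). The AGPAT genes encode the enzymes that add the next chain and form phosphatidic acid, and they split. AGPAT5 had 9.03 and 9.24 with LY101-4B, against 9.92 and 10.05 with vehicle, a 1.80-fold fall (adjusted p 0.0054). AGPAT4 had 6.44 and 6.65 with LY101-4B, against 5.80 and 5.85 with vehicle, a 1.65-fold rise (adjusted p 0.008, and 0.055 without vehicle replicate 1). The AGPAT4 values were dim in both groups. AGPAT2 had 9.21 and 9.41 with LY101-4B and 9.31 and 9.28 with vehicle, and its groups overlapped (0.02, or -0.04 with median centring).

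The lipins remove the phosphate from phosphatidic acid to give diacylglycerol. LPIN1 had 10.67 on both LY101-4B arrays, against 9.74 and 9.75 on the vehicle arrays, a 1.89-fold rise (0.92 ± 0.08, adjusted p 0.002). LPIN2 had 7.64 and 7.90 with LY101-4B and 7.58 and 7.47 with vehicle and did not pass (0.25 ± 0.12, adjusted p 0.218). LPIN3 did not pass either (0.13 ± 0.10, adjusted p 0.426), so among the lipins the call was limited to LPIN1, although the differences between the 3 genes were not tested. The last step of triacylglycerol synthesis is carried out by unrelated enzymes, DGAT1 and DGAT2. DGAT2 had 7.01 on both LY101-4B arrays, against 7.67 and 7.72 with vehicle, a 1.61-fold fall (-0.69 ± 0.08, adjusted p 0.0046). DGAT1 had 7.91 and 7.85 with LY101-4B and 7.94 and 7.83 with vehicle, and its groups overlapped (-0.0098, interval -0.23 to 0.21, and 0.02 under cyclic loess). LPIN1, DGAT2 and AGPAT5 kept their calls without any single array.

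PLIN2, which coats lipid droplets, had 9.10 and 9.32 log2 units with LY101-4B, against 8.36 and 8.39 with vehicle, a 1.79-fold rise (0.84 ± 0.10, SE; adjusted p 0.0048). The other 3 genes of storage and use did not pass. PNPLA2, the droplet triacylglycerol lipase, had 7.95 and 7.86 with LY101-4B and 7.77 and 7.72 with vehicle (0.16 ± 0.09, adjusted p 0.29), and HILPDA, an inhibitor of that lipase, had 7.20 and 7.46 with LY101-4B and 7.43 and 7.41 with vehicle (-0.09 ± 0.11, adjusted p 0.649). CPT1A, which admits fatty acids to mitochondrial oxidation, had 8.15 and 8.28 with LY101-4B and 7.92 and 7.86 with vehicle. Its groups did not overlap, and its difference of 0.32 ± 0.09 came close to the threshold (adjusted p 0.065). It passed under 3 of the 12 alternatives, cyclic loess (0.035), an intensity trend (0.035) and the brighter 50% of probe sets (0.02), and missed the threshold under the other 9 (0.063 to 0.33).

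Of 183 further lipid genes listed by function, 165 were measured. In total 23 rose (13.9%, against 8.88% of all genes) and 14 fell (8.48%, against 10.7% of all genes), with a median difference of 0.0092. These all-gene shares are the background for each of the lists that follow. The lists, too, were chosen with earlier results of these data known. With arrays centred on their medians the split was 20 higher and 27 lower, and under cyclic loess 28 higher and 16 lower. With an intensity trend it was 32 higher and 27 lower, and among the brighter 50% of probe sets 28 higher and 28 lower. The balance of directions in these lists thus depended on the setting. Among SREBP and LXR regulators 4 of 15 rose and 1 fell (median -0.09). INSIG1, the sterol-sensing retention protein and itself a known SREBP target, had 9.85 and 9.95 log2 units with LY101-4B, against 8.74 and 8.77 with vehicle, a 2.21-fold rise (adjusted p 0.0013). SREBF2, the SREBP gene tied chiefly to cholesterol synthesis, had 8.12 and 8.16 with LY101-4B, against 7.49 and 7.44 with vehicle, a 1.60-fold rise (adjusted p 0.0049). SREBF1, tied chiefly to fatty acid synthesis, had 7.91 and 8.09 with LY101-4B and 7.99 and 8.12 with vehicle, and its groups overlapped (-0.06, interval -0.32 to 0.21). SCAP, the SREBP escort protein, did not pass (0.01, interval -0.21 to 0.23, and -0.04 with median centring). NFYB, a subunit of NF-Y, fell by 0.68 log2 units (adjusted p 0.013, but 0.0501 without vehicle replicate 1, 0.08 without vehicle replicate 2 and 0.0507 with all rows tested).

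In the list of carbon and NADPH supply 6 of 15 genes rose and 1 fell (median -0.05). ME1, the cytosolic malic enzyme, had 10.65 and 10.68 log2 units with LY101-4B, against 9.02 and 9.01 with vehicle, a 3.14-fold rise (adjusted p 0.00058), and IDH1, the cytosolic isocitrate dehydrogenase, rose 2.79-fold (adjusted p 0.00086). Both enzymes yield NADPH, which fatty acid synthesis consumes. GOT1, the cytosolic aspartate aminotransferase, rose 2.46-fold (adjusted p 0.00093). In the list of enzymes that complete each elongation cycle and their electron carriers, 0 of 8 genes rose and 3 fell (median -0.11). CYB5A, the cytochrome that passes electrons to desaturases, had 8.33 and 8.57 with LY101-4B, against 9.67 and 9.74 with vehicle, a 2.39-fold fall (adjusted p 0.0018), while the desaturases SCD, FADS1 and FADS2 rose. The dehydratases HACD2 (1.48-fold) and HACD3 (1.36-fold) fell too, but each missed the threshold without LY101-4B replicate 1 (0.058 and 0.065), without vehicle replicate 1 (0.096 and 0.135), without vehicle replicate 2 (0.141 and 0.172) and with all rows tested (0.083 and 0.072).

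Other lists changed in few genes. Of 14 uptake and binding genes 1 rose, VLDLR, a lipoprotein receptor. It had 6.99 and 6.98 log2 units with LY101-4B, against 5.47 and 5.73 with vehicle (2.61-fold, adjusted p 0.0016), and its vehicle values were dim. Of 18 further droplet and lipolysis genes 1 rose and 1 fell. PNPLA8, a phospholipase related to PNPLA2, rose 2.72-fold (adjusted p 0.0011), and FITM2, which acts in droplet formation, fell 1.28-fold, a call lost when LY101-4B replicate 1 (0.098), vehicle replicate 1 (0.247) or vehicle replicate 2 (0.224) was left out, with the replicate block (0.054) and with all rows tested (0.102). Of 25 other acyltransferases and synthetases LPGAT1 rose 1.45-fold and LPCAT4 fell 1.51-fold. LPGAT1 missed the threshold without any one array (0.055 to 0.207) or with all rows tested (0.102), and LPCAT4 without either vehicle array (0.066 and 0.083). Of 18 phospholipid synthesis genes 2 rose and 2 fell. Among them CDS2, which makes CDP-diacylglycerol from phosphatidic acid, rose 1.50-fold (0.063 and 0.071 without vehicle replicate 1 or 2), and PTDSS1, which makes phosphatidylserine, fell 1.39-fold. PGS1, of the cardiolipin route, fell 1.31-fold. PTDSS1 and PGS1 each missed the threshold without LY101-4B replicate 1 (0.061 and 0.105), vehicle replicate 1 (0.123 and 0.222) or vehicle replicate 2 (0.155 and 0.22), and with all rows tested (0.073 and 0.115).

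**Figure D4:**
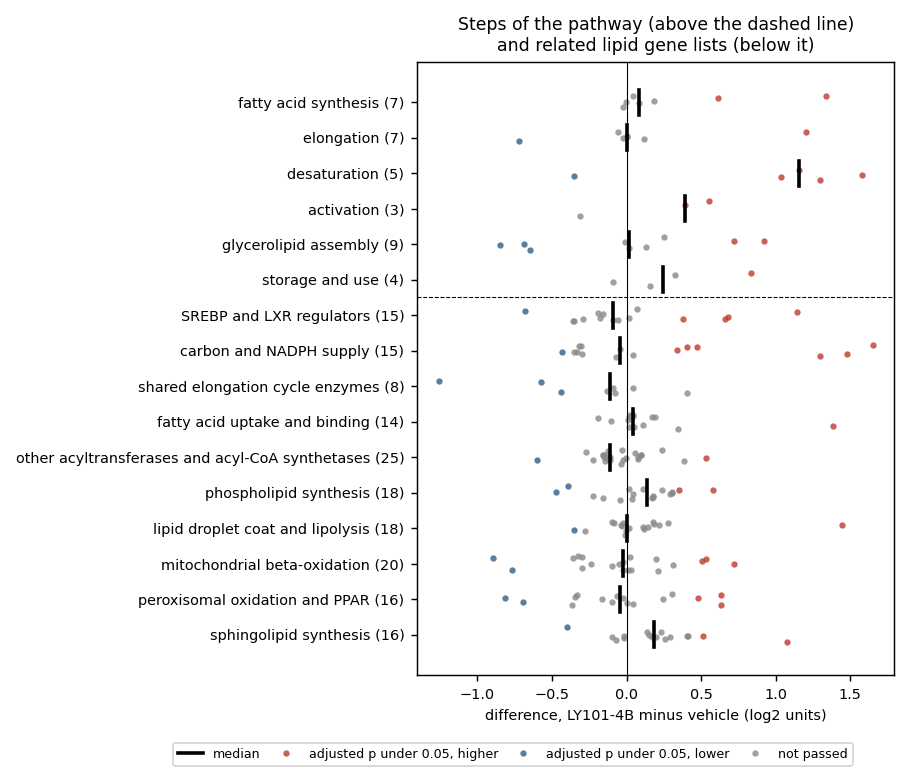
Difference, LY101-4B minus vehicle, in log2 units (x axis) for the genes of each pathway step (above the dashed line) and of related lists (below it), with the number of measured genes in brackets. Each point is a gene coloured by its call, and the black tick is the median, which is 1.16 for desaturation and between -0.11 and 0.39 in the other rows.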

How the data were processed

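The 4 samples were 1-colour Human Gene 1.0 ST arrays of total RNA from MiaPaCa2 cells, 2 per group. The deposited table gave log2 expression values per probe set, which the authors made with RMA (background correction, quantile normalisation and summary per probe set), per the submitters' processing notes; software, version and filters: not given in the sources used here. Under RMA, changes are relative to most other probe sets, and differences at low signal are compressed. Of 33297 rows, 19460 had 1 gene symbol, 1754 several and 12083 none, per the platform annotation, checked through gene identifiers against RefSeq (0 symbols updated). The 21214 rows with a symbol were fitted in R 4.3.3 by limma 3.58.1 (functions lmFit and eBayes, treatment only, 2 residual and 3.75 prior degrees of freedom), with 2-sided p-values adjusted by Benjamini-Hochberg and a threshold of 0.05. Errors are moderated standard errors, and intervals are 95% from the same fit. The fit was also run on data simulated from its own assumptions, which cannot show whether the real arrays meet them. No gene was named from a probe set with several symbols.

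All 35 measured members were named. Of each related list up to 3 called genes with the largest difference were named, and SREBF1, SREBF2, INSIG1 and SCAP whatever their values. The members and lists were chosen with earlier results of these data known. The number of arrays limits the precision, and only the design text says that the replicates are biological. All table columns were mapped (0 left unmapped).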

Additional observations from a re-analysis of the deposited data

How the results depend on the processing

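Of the 17 called members, 10 (ACSS2, ELOVL7, SCD, FADS1, FADS2, FADS3, AGPAT5, LPIN1, DGAT2 and PLIN2) passed under each of the 12 alternatives. Without 1 array the members called ranged from 8 to 12 higher and 2 to 4 lower, the further lipid genes from 10 to 19 higher and 3 to 20 lower, and all probe sets from 755 to 1899 higher and 811 to 2467 lower. Each of these lowest counts came without a vehicle array. Such fits have 1 residual degree of freedom, and where a group has 1 array its spread is taken from the other. Over all 33297 rows, where more tests are adjusted for, 9 members were higher and 3 lower, 14 further lipid genes were higher and 5 lower, and 1162 probe sets were higher and 1271 lower. Further lipid genes called lower numbered 27 with median centring, 28 among the brighter 50% and 27 with an intensity trend, against 14; the cause was not tested. The replicate numbers are shared between groups, but no label says what they mark. The deviations of same-numbered arrays correlated at 0.116, and with the replicate number as a block 12 members were higher and 4 lower (SCD5 lost its call at 0.057, and of the further lipid genes named FITM2 at 0.054), with 2024 probe sets higher and 2312 lower.

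Differences that turned sign were all of genes that did not pass. With median centring these were ACACA (-0.0076), ELOVL3 (-0.0488), ELOVL5 (-0.0503), AGPAT2 (-0.0359) and SCAP (-0.0374). Under cyclic loess they were ACLY (0.0868), FASN (0.0907), ELOVL1 (0.046) and DGAT1 (0.0151). Leaving out 1 array, the ranges were -0.0721 to 0.0288 for ACLY, -0.0214 to 0.0191 for FASN, -0.3419 to 0.3464 for ELOVL3, -0.1269 to 0.0833 for ELOVL4, -0.0096 to 0.0111 for ELOVL5, -0.0838 to 0.114 for AGPAT2, -0.0627 to 0.043 for DGAT1, -0.2235 to 0.0391 for HILPDA, -0.146 to 0.0307 for SREBF1 and -0.0324 to 0.0596 for SCAP. Median centring shifted all differences by -0.05.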

Other observations

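Of 20 measured genes of mitochondrial beta-oxidation 3 rose and 2 fell, and 15 did not pass. Of all genes 8.88% rose and 10.7% fell, and the list was not tested against them. The median difference of the list was -0.02 log2 units. HADH, a dehydrogenase of the cycle, had 7.93 and 8.06 with LY101-4B, against 8.86 and 8.92 with vehicle, a 1.86-fold fall (limma adjusted p 0.0028), and ACADSB, which acts on branched short chains, fell 1.70-fold. ECI1, the isomerase needed to oxidise unsaturated chains, had 9.01 and 8.96 with LY101-4B, against 8.32 and 8.21 with vehicle, a 1.65-fold rise (adjusted p 0.005). These 3 calls were kept without any single array.

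Among 16 genes of peroxisomal oxidation and the PPAR receptors 3 rose and 2 fell (median -0.04), and 11 did not pass. CROT, a carnitine acyltransferase of peroxisomes, fell 1.76-fold, and ABCD3, a peroxisomal importer, fell 1.62-fold. PPARG, the receptor that drives fat cell differentiation, rose 1.55-fold, from dim values in both groups (6.51 and 6.63 with LY101-4B, against 6.10 and 5.77 with vehicle). CROT missed the threshold without LY101-4B replicate 1 (0.057) or vehicle replicate 2 (0.095), ABCD3 without vehicle replicate 2 (0.064), and PPARG without LY101-4B replicate 1 (0.065), LY101-4B replicate 2 (0.081) or vehicle replicate 2 (0.129). With all rows tested, CROT (0.073) and PPARG (0.079) missed it too.

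Of 16 sphingolipid genes 2 rose and 1 fell (median 0.18). SGPL1, the lyase that ends sphingolipid breakdown and releases a fatty aldehyde, had 9.86 and 10.07 log2 units with LY101-4B, against 8.87 and 8.91 with vehicle, a 2.11-fold rise (adjusted p 0.0023). SPTLC2, a subunit of the enzyme that begins sphingolipid synthesis, rose 1.42-fold, whereas SPTSSA, a small subunit of the same enzyme, fell 1.32-fold. SPTLC2 missed the threshold without vehicle replicate 1 (0.09) or vehicle replicate 2 (0.118), and SPTSSA without LY101-4B replicate 1 (0.087), vehicle replicate 1 (0.214) or vehicle replicate 2 (0.18), and both with all rows tested (0.052 and 0.095).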
